A study of Mus musculus with 18 samples.

Results

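The levels of 10 genes of the NRF2 antioxidant pathway were followed in Th17 cells of the mouse, a class of helper T cell named for its cytokine interleukin-17. They were Nfe2l2, Keap1, Srxn1, Prdx1, Txnrd1, Gclc, Gclm, Gsr, Nqo1 and Hmox1, taken by symbol from a deposited table of TPM, transcript levels scaled for gene length and library depth. All 10 symbols were found among the 45703 genes of the table. All 10 also passed the filter for testing, a level of at least 1 TPM in at least 3 libraries, which 14229 genes passed.

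The 18 libraries of polyadenylated RNA formed 6 groups of 3. GLUT3KO cells carried Slc2a3-fl/fl and Cd4-cre, which targets the gene of the glucose transporter GLUT3, with or without acetate. ACLYKO cells carried Acly-fl/fl and Cd4-cre, which targets the gene of ATP citrate lyase, the enzyme that makes cytosolic acetyl-CoA from citrate, with or without acetate. WT cells were labelled wild type, again with or without acetate, and the labels do not say whether they carried floxed alleles or Cre. Cd4-cre deletes during T cell development in the thymus, before cultures of this kind begin. GLUT3 loss and ACLY loss below stand for these genotypes; neither protein was measured. In every group naive T cells were stimulated through CD3 and CD28 with Th17 cytokines for 48 h, kept for a further 24 h without or with acetate, and restimulated for 5 h with ionomycin and PMA while brefeldin A and monensin held back secretion. The sample protocols give 20 mM acetate and the series text gives 10 mM. The background label is C57BL/6 for every WT library, while the number after the stroke runs upward in 6 knockout libraries. The labels give neither the age of the mice nor how many animals stand behind the 3 libraries of a group, so the p-values below measure the spread between these libraries.

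NRF2, encoded by Nfe2l2, is a transcription factor whose amount is set mainly by protein turnover. KEAP1 binds it in the cytoplasm and presents it to a ubiquitin ligase, and oxidants or electrophiles that modify cysteines of KEAP1 let NRF2 accumulate, enter the nucleus and pair with small MAF proteins at antioxidant response elements (AREs). Its targets build and recycle glutathione, run the peroxiredoxin and thioredoxin cycle and detoxify quinones and haem, and activated T cells depend on glutathione to buffer the oxidants made during growth. Messenger RNA was measured here, and neither NRF2 protein nor its binding.

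RefSeq promoter windows of 300 bases (250 before to 50 after the gene start, build GRCm38.p6) were matched to 7 of the 10 genes. They were searched on both strands for the ARE core TGACNNNGC and for the AP-1 element TGANTCA, which resembles the ARE and can lie within it. These genes had 9 windows, since Txnrd1 has 3 alternative starts. The ARE core was in 5 of the 9 windows (those of Nfe2l2, Srxn1, Gclm, Prdx1 and 1 of the Txnrd1 starts), and in none for Keap1 and Nqo1, against 12.39% of 32851 windows in all. AP-1 was in 7.808% of all windows and, of these genes, in those of Srxn1 and Prdx1. In Prdx1 the ARE match GCTGAGTCA, read on the gene's strand, begins 133 bases before the start and overlaps an AP-1 match that begins 131 bases before it. The bases upstream of the start are printed for Srxn1, which differed most between genotypes, for Nfe2l2, the gene of NRF2 itself, and for Nqo1, which changed most with acetate, 5′ to 3′ on the gene's strand, with matches to either motif in capitals. Srxn1 (chr2:152105274-152105523, plus strand) has a pair of AP-1 matches, beginning 102 and 45 bases before the start, and an ARE core beginning 28 bases after it, outside the printed stretch. The AP-1 match 45 bases before the start reads on as TGAGTCAgc. It differs from the ARE core searched for only by a G in place of the C after TGA. Nfe2l2 (chr2:75704664-75704913, minus strand) has an ARE core beginning 240 bases before the start. Nqo1 (chr8:107403206-107403455, minus strand) has neither motif in this window. These matches are letters only and no binding was measured. The genes themselves lie at chr2:152105524-152111376 (Srxn1, plus strand), chr2:75675513-75704663 (Nfe2l2, minus strand) and chr8:107388225-107403205 (Nqo1, minus strand). Of the other genes the results turn on, Gsr lies at chr8:33653238-33698162 (plus strand), Gclc at chr9:77754535-77794489 (plus strand) and Keap1 at chr9:21229730-21239332 (minus strand).
Srxn1: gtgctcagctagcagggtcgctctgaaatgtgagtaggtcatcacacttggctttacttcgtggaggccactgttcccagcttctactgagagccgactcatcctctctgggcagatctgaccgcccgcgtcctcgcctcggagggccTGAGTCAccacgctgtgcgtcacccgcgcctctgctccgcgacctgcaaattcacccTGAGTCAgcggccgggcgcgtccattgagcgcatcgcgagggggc
Nfe2l2: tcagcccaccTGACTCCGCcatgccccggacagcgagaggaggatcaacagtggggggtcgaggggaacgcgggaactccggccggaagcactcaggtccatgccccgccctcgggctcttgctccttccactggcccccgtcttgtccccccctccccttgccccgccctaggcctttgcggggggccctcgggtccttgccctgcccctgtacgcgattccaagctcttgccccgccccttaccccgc
Nqo1: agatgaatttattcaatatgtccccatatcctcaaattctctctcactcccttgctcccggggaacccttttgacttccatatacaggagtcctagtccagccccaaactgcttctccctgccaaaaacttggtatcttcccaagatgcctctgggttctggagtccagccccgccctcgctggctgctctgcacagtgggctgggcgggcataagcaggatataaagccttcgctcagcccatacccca

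The libraries held 18.7 to 30.1 M reads, recovered from the TPM and the exon lengths. Slc2a3 averaged 6.17 ± 2.10 TPM in GLUT3KO cells and 17.7 ± 2.91 TPM in WT cells (SD, n = 3 each; log2 change -1.42 ± 0.28, limma adjusted p = 0.00118). In cultures given acetate the means were 10.7 ± 2.64 TPM in GLUT3KO cells and 31.0 ± 1.53 TPM in WT cells (-1.48, limma adjusted p = 0.000885). ACLYKO cells, which carry no Slc2a3 deletion, had 10.2 ± 3.91 TPM without acetate, and GLUT3KO over ACLYKO did not pass (-0.62, limma adjusted p = 0.0939). With acetate ACLYKO cells had 20.6 ± 4.10 TPM, and GLUT3KO over ACLYKO passed (-0.90, limma adjusted p = 0.0194). Slc2a3 mRNA was thus lower in GLUT3KO than in WT cells but present, and the table gives no value for the floxed exons alone. Acly averaged 11.3 ± 3.85 TPM in ACLYKO cells and 396 ± 4.27 TPM in WT cells. All 8 T cell and Th17 markers were present in every group, but their sum moved with genotype and acetate. It was 4411 to 4800 TPM in GLUT3KO libraries with acetate and 2349 to 3234 TPM without, 2804 to 3373 TPM in ACLYKO libraries with acetate and 2342 to 2737 TPM without, and 4939 to 6035 TPM in WT libraries with acetate and 3356 to 3859 TPM without. Of the 8, Il17a and Il17f were lower in both untreated knockouts than in untreated WT cells, and Cd3e and Rora were higher in GLUT3KO than in WT. The part of these shifts in the results below was not tested. Macrophage, monocyte and dendritic cell markers (14 genes) summed to 15.7 to 21.2 TPM in ACLYKO, 4.38 to 4.60 TPM in GLUT3KO and 1.99 to 3.53 TPM in WT libraries, with C1qa, C1qb, C1qc and Marco at 0 in all groups. The ACLYKO sum came nearly all from Vcam1 (9.82 to 11.5 TPM, against 0.147 to 0.544 TPM in WT) and Cd68 (4.06 to 8.99 TPM, against 1.02 to 2.62 TPM in WT). The other 12 genes were below 1 TPM in ACLYKO, among them Itgax (0 to 0.190 TPM, against 0.175 to 0.244 TPM in WT). The 5 NK and gamma-delta T cell markers in the table summed to 35.6 to 89.1 TPM in GLUT3KO, 11.0 to 20.5 TPM in ACLYKO and 2.04 to 3.54 TPM in WT libraries, nearly all from Trdc, the constant segment of the delta T cell receptor chain. Within groups, a single axis held 63.6% of the variance. On it the 3 libraries of a group ran between -35.96 and 31.9 in GLUT3KO, -53.5 and 90.2 in ACLYKO, -17.55 and 29.5 in ACLYKO with acetate and -20.2 and 35.6 in WT, and stayed between -1.99 and 2.22 in GLUT3KO with acetate and WT with acetate. ACLYKO replicate 1 lay farthest out. A set of 5 libraries taken from earlier results (GLUT3KO replicates 1 and 3, ACLYKO replicate 1, ACLYKO with acetate replicate 1 and WT replicate 1) was left out in 1 refit. On this axis GLUT3KO replicate 3 lay in the middle of its group, at 4.10, and the GLUT3KO library kept, replicate 2, lay at -35.96.

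GLUT3 loss was associated with higher mRNA of NRF2 itself, of its inhibitor KEAP1 and of 3 targets, while 5 targets did not pass the test. With GLUT3KO set against WT without acetate, 5 of the 10 genes were higher and 0 lower by limma on log2(TPM + 1) at an adjusted p under 0.05, beside 24.9% of all genes tested that were higher and 8.47% that were lower. The libraries of both groups did not overlap for 6 of the 10 genes, all higher in GLUT3KO, beside 31.2% of all genes higher and 14.2% lower without overlap. The median log2 change was 0.56 over the 10 genes and 0.17 over all genes tested. With median-ratio scaling these medians were 0.34 and -0.01, and the higher share of all calls was 54.9%, against 74.6% on the TPM scale. All 5 genes were also called higher on that scale.

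Srxn1, which encodes sulfiredoxin, the enzyme that repairs over-oxidized peroxiredoxins, showed the greatest difference of the 10. It had 53.7, 71.6 and 57.6 TPM in GLUT3KO libraries, against 4.18, 5.23 and 4.27 TPM in WT libraries. Every GLUT3KO library was far above every WT library, and the ratio of the means was 13.4. The log2 change was 3.47 ± 0.20 (SE, limma adjusted p = 1.03e-08). Trdc stood at 34.6 to 87.9 TPM in GLUT3KO and 2.00 to 3.39 TPM in WT libraries, so this marker moved with the contrast, and its part in the results was not tested. In bulk RNA a change in the share of a cell type and a change in RNA per cell cannot be told apart.

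Nfe2l2 had 164.8, 114.3 and 135.5 TPM in GLUT3KO libraries, against 50.8, 30.1 and 28.8 TPM in WT libraries. The lowest GLUT3KO library was more than any WT library, and the ratio of the means was 3.78 (log2 change 1.92 ± 0.24, limma adjusted p = 2.1e-05). Gsr, glutathione reductase, which regenerates reduced glutathione with NADPH, had 90.6, 89.2 and 95.8 TPM in GLUT3KO libraries, against 34.5, 27.6 and 28.9 TPM in WT libraries. The GLUT3KO libraries lay close together and apart from WT, with a ratio of the means of 3.03 (log2 change 1.57 ± 0.21, limma adjusted p = 3.52e-05). Nqo1, a quinone reductase and a widely used readout of NRF2 activity, was lower in level and more variable, at 14.2, 25.0 and 20.1 TPM in GLUT3KO libraries against 7.25, 5.27 and 3.30 TPM in WT libraries. Its groups did not overlap either (ratio of the means 3.75, log2 change 1.74 ± 0.43, limma adjusted p = 0.00559).

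Keap1, the NRF2 inhibitor, had 43.6, 38.2 and 46.2 TPM in GLUT3KO libraries, against 29.4, 23.85 and 23.2 TPM in WT libraries. It was higher in each GLUT3KO library than in each WT library, by a smaller factor (ratio of the means 1.67, log2 change 0.72 ± 0.23, limma adjusted p = 0.0226). The Keap1 call ended without GLUT3KO replicate 1 or 3 or WT replicate 2 or 3 (limma adjusted p 0.0614, 0.0785, 0.075 and 0.0797). The log2 change was 0.47 after quantile normalization and 0.48 after correction for GC content and length.

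The other 5 genes did not pass in this contrast. Hmox1, haem oxygenase 1, which splits haem into biliverdin, iron and carbon monoxide, had 74.3, 74.4 and 78.8 TPM in GLUT3KO libraries, against 68.4, 65.2 and 58.2 TPM in WT libraries. These did not overlap, but the difference was small for the shared spread (log2 change 0.25, 95% interval -0.30 to 0.79, limma adjusted p = 0.487). Gclc and Gclm, the catalytic and modifier subunits of glutamate-cysteine ligase, which makes the rate-limiting precursor of glutathione, averaged 33.7 ± 5.72 and 19.3 ± 2.45 TPM in GLUT3KO cells, beside 32.0 ± 9.67 and 19.5 ± 1.52 TPM in WT cells. Their 95% intervals were -0.41 to 0.61 and -0.40 to 0.37 on the log2 scale. Prdx1, which removes hydrogen peroxide, averaged 322 ± 80.6 TPM in GLUT3KO cells and 338 ± 58.9 TPM in WT cells (interval -0.86 to 0.70). Txnrd1, cytosolic thioredoxin reductase, averaged 128 ± 22.4 TPM in GLUT3KO cells and 98.4 ± 24.1 TPM in WT cells (interval -0.33 to 1.11). The intervals of Hmox1, Gclc, Prdx1 and Txnrd1 are wide enough to hold a change of 1.5 times in at least 1 direction, and that of Gclm is not.

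**Figure D1:**
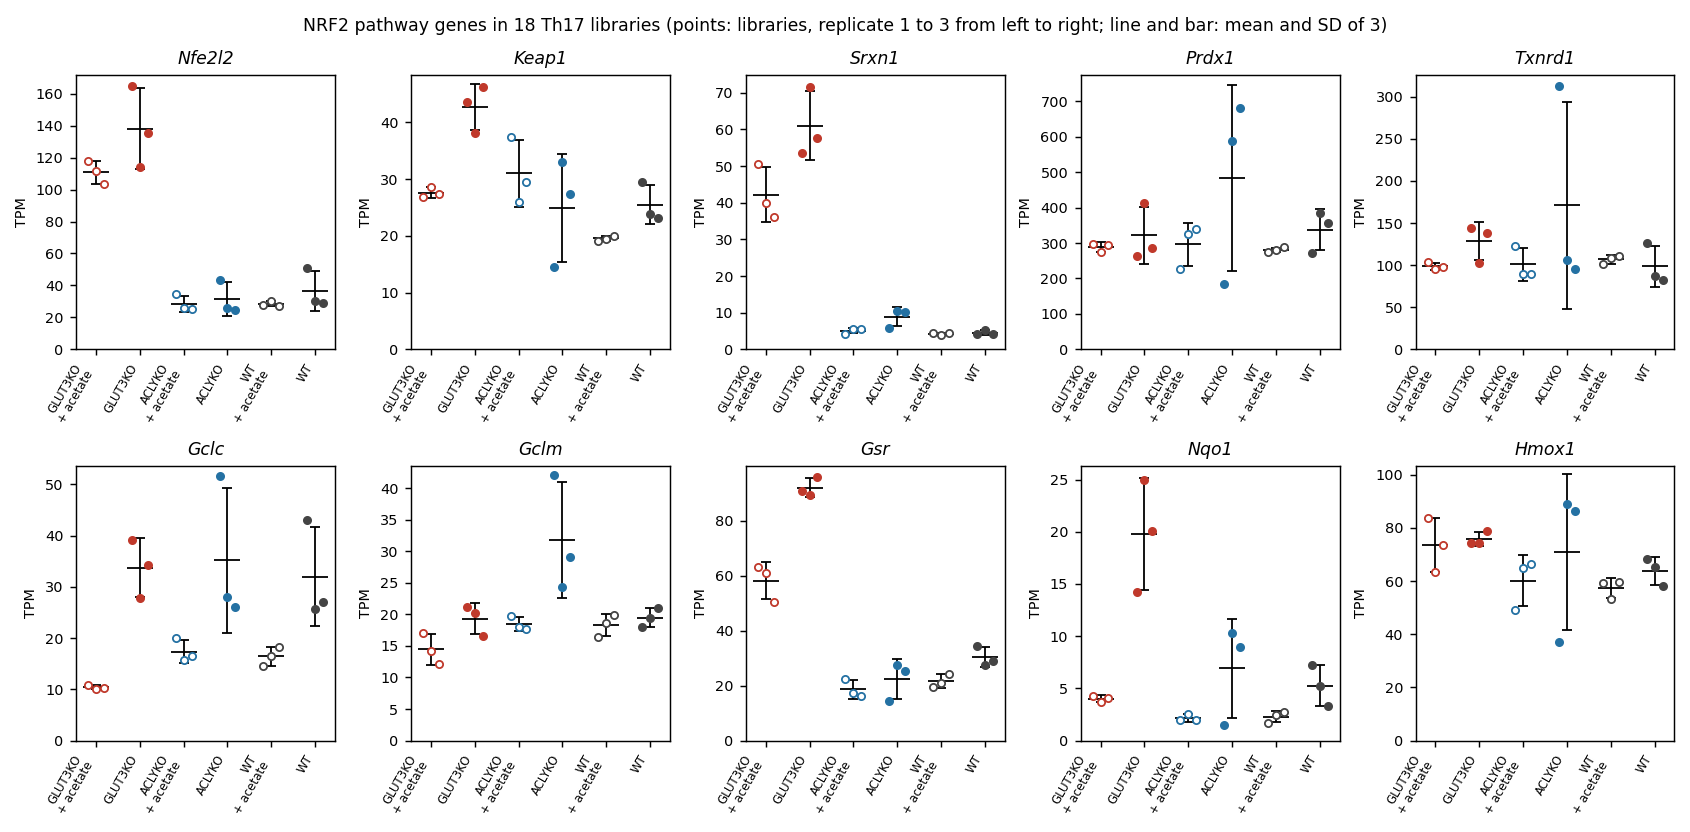
TPM of the 10 genes in all 18 libraries, 1 panel a gene; points are libraries, open with acetate and filled without, and lines and bars are the mean and SD of 3. Srxn1, Nfe2l2 and Gsr stand high in both GLUT3KO groups, Nqo1 in GLUT3KO without acetate alone, and the ACLYKO libraries spread widely for Prdx1, Txnrd1 and Hmox1.

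With ACLY loss Srxn1 and Gclm rose, and the other 8 genes did not pass. That made 2 of 10 genes higher and 0 lower in ACLYKO against WT without acetate, beside 12.7% of all genes tested that were higher and 6.38% that were lower. For the same 2 genes the libraries did not overlap, beside 16.1% of all genes higher and 10.8% lower without overlap. The median log2 change was 0.11 over the 10 genes and 0.03 over all genes. The higher share of all calls was 66.6%, and 54.8% with median-ratio scaling. Gsr was lower but did not pass (log2 change -0.47, 95% interval -0.91 to -0.03, limma adjusted p = 0.132), and the libraries overlapped. It was called lower with median-ratio scaling (-0.51, limma adjusted p = 0.0243), voom (0.0297) and quantile normalization (0.0271). Correction for GC and length (0.0226) and leaving out ACLYKO replicate 2 (0.0492) also gave this call. In these refits 9.87%, 9.96%, 9.68%, 11.8% and 8.86% of all genes were lower.

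Srxn1 had 5.84, 10.6 and 10.3 TPM in ACLYKO libraries, against the WT values given above (4.18 to 5.23 TPM). All ACLYKO libraries were above all WT libraries, with a ratio of the means of 1.95 (log2 change 0.80 ± 0.20, limma adjusted p = 0.0109). When these groups were fitted on their own the adjusted p was 0.208. Gclm had 42.0, 24.3 and 29.0 TPM in ACLYKO libraries, against 17.9, 19.5 and 21.0 TPM in WT libraries. It was higher throughout, most of all in ACLYKO replicate 1 (ratio of the means 1.63, log2 change 0.65 ± 0.18, limma adjusted p = 0.0208). Its call ended without WT replicate 1 or 2 (adjusted p 0.0565 and 0.0617), with median-ratio scaling (0.0813), voom (0.0978), quantile normalization (0.0902), correction for GC and length (0.0957, log2 change 0.41) and the fit of these groups alone (0.271). A pseudogene, Gm6061, overlaps Gclm on the same strand, so the Gclm level is uncertain.

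The ACLYKO libraries spread widely for several genes. Prdx1 had 184, 587 and 680 TPM, Nqo1 1.51, 10.3 and 8.97 TPM, and Hmox1 37.1, 89.2 and 86.4 TPM in ACLYKO replicates 1 to 3. Replicate 1 was the low library for these genes, and also for Keap1 (14.5 against 33.0 and 27.3 TPM) and Gsr (14.2 against 27.6 and 25.3 TPM). It was the high library for Txnrd1 (313 against 106 and 95.1 TPM), Gclc (51.5 against 27.95 and 26.1 TPM), Gclm and Nfe2l2 (43.6 against 26.0 and 24.4 TPM). Without it, 5 of the 10 genes were called higher in ACLYKO than in WT: Srxn1, Gclm, Nqo1 (log2 change 0.81, limma adjusted p = 0.0314), Hmox1 (0.45, 0.0273) and Prdx1 (0.92, 0.00501). In that refit 19% of all genes were higher and 6.3% lower, so the share of all genes called higher grew as well. The markers Trdc, Vcam1 and Cd68, given above, also moved with ACLYKO, and their part in these values was not tested.

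Set against each other without acetate, GLUT3KO and ACLYKO cells differed in 6 of the 10 genes. Of these, 5 (Nfe2l2, Keap1, Srxn1, Nqo1 and Gsr) were higher in GLUT3KO, beside 25.2% of all genes, and Gclm was lower, beside 15.2% of all genes. The log2 differences were 2.67 for Srxn1 (limma adjusted p = 9.53e-08), 2.14 for Nfe2l2 (5.58e-06), 2.04 for Gsr (2.14e-06), 1.63 for Nqo1 (0.00694), 0.82 for Keap1 (0.00898) and -0.66 for Gclm (0.00864). The higher share of all calls in this contrast was 62.3%, and 52% with median-ratio scaling. For the same 6 genes the libraries did not overlap, beside 25.7% of all genes higher and 15.2% lower without overlap. Without ACLYKO replicate 1 the difference was 0.49 for Keap1 and 0.94 for Nqo1 (limma adjusted p 0.0132 and 0.00709). In the fit of these groups alone Keap1, Nqo1 and Gclm were not called (0.146, 0.13 and 0.139), and without the set of 5 libraries Gclm was not (0.0902, log2 difference -0.38) and Keap1 was 0.34.

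**Figure D2:**
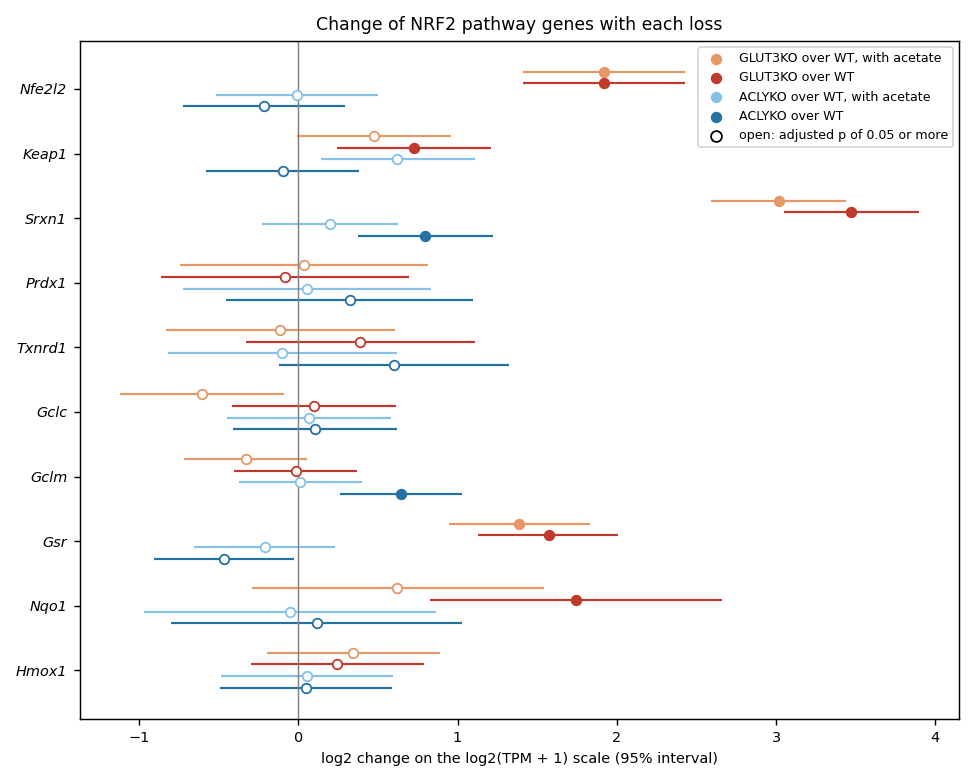
log2 change of each gene with GLUT3 or ACLY loss against WT, with and without acetate, on the log2(TPM + 1) scale; bars are 95% intervals and open points have a limma adjusted p of 0.05 or more. Srxn1 lies at 3.47 without and 3.02 with acetate in GLUT3KO, and the filled ACLYKO points are Srxn1 and Gclm without acetate.

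With acetate, Nfe2l2, Srxn1 and Gsr were higher in GLUT3KO than in WT, and Nqo1 and Keap1 did not pass. In all, 3 of 10 genes were higher and 0 lower, beside 20.9% of all genes tested higher and 9.5% lower. Srxn1 had 50.7, 39.8 and 36.2 TPM in GLUT3KO libraries with acetate, against 4.42, 3.94 and 4.50 TPM in WT libraries with acetate. Nfe2l2 had 118, 112 and 103 TPM in GLUT3KO libraries with acetate, against 27.95, 30.2 and 27.4 TPM in WT libraries with acetate. Gsr had 62.9, 60.8 and 50.4 TPM in GLUT3KO libraries with acetate, against 19.4, 20.95 and 24.4 TPM in WT libraries with acetate. For all 3 genes both groups lay far apart, by ratios of the means of 9.84, 3.89 and 2.69 (log2 changes 3.02, 1.92 and 1.39, limma adjusted p 4.5e-08, 2.32e-05 and 0.00012). The libraries did not overlap for 7 of the 10 genes, 6 higher and 1 lower, beside 41.4% of all genes higher and 29.9% lower without overlap.

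The genes without a call in this contrast included Nqo1, with 4.32, 3.69 and 4.06 TPM in GLUT3KO libraries with acetate against 1.70, 2.43 and 2.73 TPM in WT libraries with acetate. The groups did not overlap, but at these low levels the log2 change was 0.62 (95% interval -0.29 to 1.54, limma adjusted p = 0.31). Gclc went the other way, at 10.9, 10.1 and 10.3 TPM in GLUT3KO libraries with acetate against 14.6, 16.6 and 18.3 TPM in WT libraries with acetate (log2 change -0.61, limma adjusted p = 0.072). When these groups were fitted on their own, 7 of the 10 genes were called, among them Nqo1 and Keap1 higher (adjusted p 0.00523 and 0.000196) and Gclc lower (0.000726). That fit called 38.8% of all genes higher and 27.2% lower. The higher share of all calls was 68.8%, and 56.7% with median-ratio scaling.

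ACLYKO and WT cells with acetate differed in 0 of the 10 genes by limma at an adjusted p under 0.05, beside 11.5% of all genes tested that were higher and 1.98% that were lower. Keap1 alone had an unadjusted p under 0.05, and voom on the recovered reads also called 0. Keap1 had 37.5, 26.0 and 29.5 TPM in ACLYKO libraries with acetate, against 19.1, 19.5 and 20.0 TPM in WT libraries with acetate. It was the only 1 of the 10 whose libraries did not overlap here, higher in ACLYKO, beside 38.9% of all genes (log2 change 0.62, limma adjusted p = 0.0857). Srxn1 was at 5.09 ± 0.68 TPM in ACLYKO cells and 4.29 ± 0.30 TPM in WT cells, both with acetate (95% interval of the log2 change -0.23 to 0.62). Of all calls in this contrast 85.4% were higher, and 62% with median-ratio scaling, which moved the median of all genes to -0.02, against 0.16 on the TPM scale.

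Between the knockouts with acetate, GLUT3KO cells were higher than ACLYKO cells in Nfe2l2, Srxn1 and Gsr and lower in Gclc, beside 17.7% of all genes higher and 20% lower. The log2 differences were 1.93, 2.82 and 1.598 for the first 3 genes (limma adjusted p 1.69e-05, 6.84e-08 and 2.56e-05). For Gclc it was -0.67 (0.0392), a call that ended without any 1 of the 6 libraries (adjusted p 0.0548 to 0.13), with no filter (0.0606), with median-ratio scaling (0.111) and with voom (0.119).

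Acetate was accompanied by lower Gclc mRNA in all 3 genotypes, and by lower Nqo1 in GLUT3KO cells. In GLUT3KO cells with acetate against those without, 0 of 10 genes were higher and 3 lower, beside 4.86% of all genes higher and 7.89% lower. Gclc had 10.9, 10.1 and 10.3 TPM in GLUT3KO libraries with acetate, against 39.2, 27.8 and 34.3 TPM without. The acetate libraries lay close together, each below every untreated library, with a ratio of the means of 0.31 (log2 change -1.59 ± 0.24, limma adjusted p = 0.000683). Nqo1 had 4.32, 3.69 and 4.06 TPM in GLUT3KO libraries with acetate, against 14.2, 25.0 and 20.1 TPM without. That gave a ratio of the means of 0.20 (log2 change -2.02 ± 0.43, limma adjusted p = 0.00676), and no other of the 10 genes changed as much with acetate in any genotype in this fit.

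Gsr had 62.9, 60.8 and 50.4 TPM in GLUT3KO libraries with acetate, against 90.6, 89.2 and 95.8 TPM without. The groups lay apart with a ratio of the means of 0.63, at the edge of the threshold (log2 change -0.66 ± 0.21, limma adjusted p = 0.0496). The Gsr call ended without any 1 of the 6 libraries (adjusted p 0.065 to 0.171), with the replicate number as a block (0.103), with a pseudocount of 0.1 TPM (0.057) and with no filter (0.073). Srxn1 had 50.7, 39.8 and 36.2 TPM in GLUT3KO libraries with acetate, against 53.7, 71.6 and 57.6 TPM without, and did not pass (log2 change -0.52, limma adjusted p = 0.0982). Nfe2l2 did not pass either, at 111 ± 7.20 TPM with acetate and 138 ± 25.4 TPM without (SD, n = 3 each; limma adjusted p = 0.415). The libraries did not overlap for 5 of the 10 genes, all lower, beside 28.3% of all genes lower and 16.3% higher without overlap. All 10 log2 changes were negative, with a median of -0.46 against -0.07 over all genes. The higher share of all calls was 38.1%, and 57.5% with median-ratio scaling.

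In ACLYKO cells with acetate against those without, Gclc, Gclm and Srxn1 were lower, so that 0 of 10 genes were higher and 3 lower, beside 11.7% of all genes higher and 5.6% lower. Gclc had 20.0, 15.6 and 16.5 TPM in ACLYKO libraries with acetate, against 51.5, 27.95 and 26.1 TPM without (log2 change -0.92 ± 0.24, limma adjusted p = 0.0157). Gclm had 19.7, 17.98 and 17.7 TPM in ACLYKO libraries with acetate, against 42.0, 24.3 and 29.0 TPM without (log2 change -0.72 ± 0.18, limma adjusted p = 0.0124). Srxn1 had 4.30, 5.44 and 5.52 TPM in ACLYKO libraries with acetate, against 5.84, 10.6 and 10.3 TPM without (log2 change -0.67 ± 0.20, limma adjusted p = 0.0302). For these 3 genes no library with acetate reached the lowest library without it, beside 9.09% of all genes lower and 18.7% higher without overlap. Nqo1 had 1.95, 2.57 and 1.94 TPM in ACLYKO libraries with acetate, against 1.51, 10.3 and 8.97 TPM without, and did not pass (log2 change -1.06, limma adjusted p = 0.106).

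Without ACLYKO replicate 1, acetate was accompanied in ACLYKO cells by lower levels of 7 of the 10 genes: Srxn1, Gclc and Gclm, and Nqo1 (log2 change -1.75, limma adjusted p = 0.000245), Hmox1 (-0.55, 0.0114), Gsr (-0.50, 0.0291) and Prdx1 (-1.11, 0.0016). In that refit 9.4% of all genes were lower and 11.2% higher. Without ACLYKO with acetate replicate 2 or 3, 1 gene was called, beside 12.6% and 11.8% of all genes. There Srxn1 (limma adjusted p 0.0595 and 0.0587) and Gclc (0.0617 and 0.0566) did not pass. The Srxn1 call also ended without ACLYKO replicate 2 or 3 (0.0908 and 0.0844) or ACLYKO with acetate replicate 1 (0.102). In the fit of these groups alone all 3 calls ended (0.211 for Gclc, 0.223 for Gclm and 0.301 for Srxn1). The higher share of all calls was 67.6%, and 56.6% with median-ratio scaling.

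In WT cells with acetate against those without, Gclc alone was lower, and 0 of 10 genes were higher, beside 2.28% of all genes lower and 4.22% higher. Gclc had 14.6, 16.6 and 18.3 TPM in WT libraries with acetate, against 43.1, 25.8 and 27.0 TPM without. The groups lay apart, with WT replicate 1 well above the other untreated libraries (ratio of the means 0.52, log2 change -0.88 ± 0.24, limma adjusted p = 0.0413). The call ended without any 1 of the 6 libraries: without WT replicates 1, 2 and 3 the adjusted p was 0.197, 0.0507 and 0.06, and without WT with acetate replicates 1, 2 and 3 it was 0.155, 0.12 and 0.0846. With the replicate number as a block it was 0.0512. The libraries did not overlap for 4 genes, all lower with acetate, beside 22% of all genes lower and 19.2% higher without overlap. Nqo1 had 1.70, 2.43 and 2.73 TPM in WT libraries with acetate, against 7.25, 5.27 and 3.30 TPM without, and did not pass (log2 change -0.89, limma adjusted p = 0.272).

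The differences between these acetate changes were tested directly. For GLUT3KO minus WT 0 of the 10 genes passed, with 0 at an unadjusted p under 0.05 and 0 by voom, beside 0.773% of all genes. The difference was -1.12 for Nqo1 (95% interval -2.42 to 0.17, limma adjusted p = 0.88) and -0.71 for Gclc (-1.43 to 0.02, limma adjusted p = 0.75), both on the log2 scale. For ACLYKO minus WT 0 passed, with 2 (Keap1 and Gclm) at an unadjusted p under 0.05 and 0 by voom, beside 1.34% of all genes. So with all 18 libraries the lower Nqo1 in GLUT3KO cells with acetate was not shown to differ from the acetate change in WT cells. Without the set of 5 libraries, which left 1 untreated GLUT3KO library, the log2 difference from WT was -1.7 for Nqo1 and -0.68 for Gclc. The comparisons share libraries with each other, so their values are given side by side only.

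**Figure D3:**
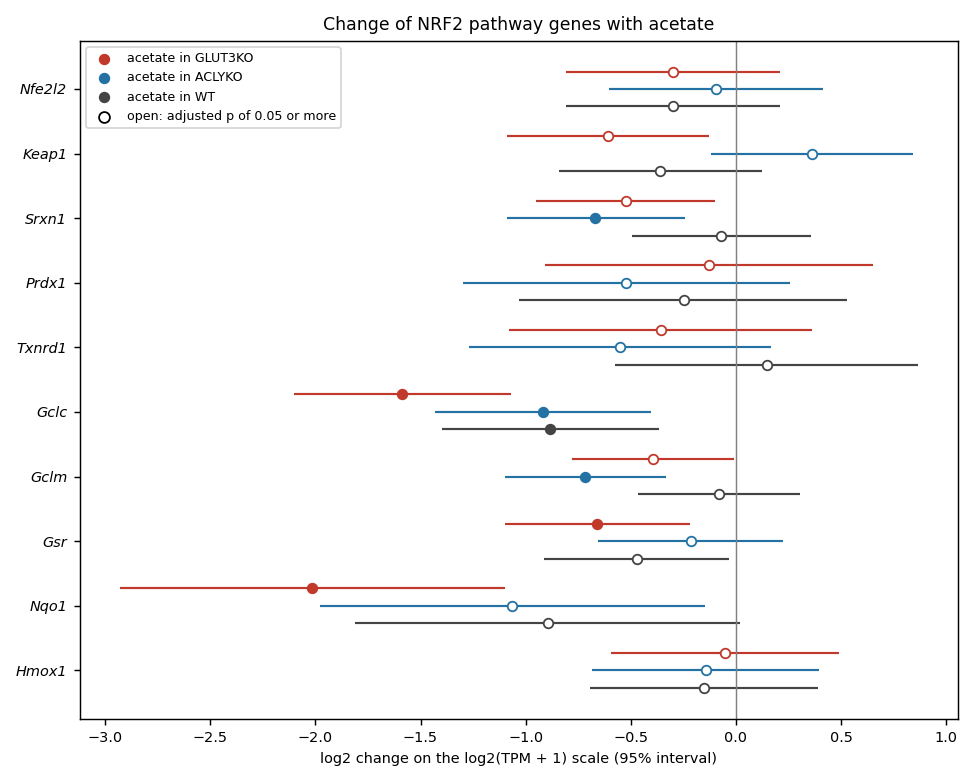
log2 change of each gene with acetate within GLUT3KO, ACLYKO and WT cells, on the log2(TPM + 1) scale; bars are 95% intervals and open points have a limma adjusted p of 0.05 or more. Gclc lies below 0 in all 3 genotypes, Nqo1 reaches -2.02 in GLUT3KO, and Keap1 in ACLYKO and Txnrd1 in WT are the points above 0.

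The order of the 6 groups differed by gene. For Srxn1 it was GLUT3KO, GLUT3KO with acetate and then ACLYKO, each apart from the next, followed by ACLYKO with acetate, WT and WT with acetate, whose neighbours overlapped. For Gsr it was GLUT3KO, GLUT3KO with acetate and then WT, each apart from the next, and the other neighbours overlapped. For Nfe2l2 both GLUT3KO groups overlapped and stood apart from the other 4, and for Nqo1 and Keap1 GLUT3KO without acetate stood apart from the group that followed. For Gclc the 3 untreated groups overlapped with their neighbours and stood apart from the acetate groups, of which GLUT3KO was lowest and apart. For Gclm ACLYKO stood apart at the top. For Hmox1, Txnrd1 and Prdx1 every neighbouring pair overlapped.

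Levels of partner genes were set against each other within each library. Srxn1 over its substrate Prdx1 was 0.146 ± 0.0238 in GLUT3KO cells with acetate and 0.192 ± 0.0168 in GLUT3KO cells without, and in each of the other 4 groups its mean was at most 0.0216. Nfe2l2 over Keap1 was 4.03 ± 0.33 in GLUT3KO cells with acetate and 3.23 ± 0.47 without, 0.925 ± 0.0642 in ACLYKO cells with acetate, and 1.46 ± 0.0908 in WT cells with acetate and 1.41 ± 0.28 without (SD, n = 3 each). In ACLYKO cells without acetate that ratio was 3.01, 0.787 and 0.892, so replicate 1 fell within the GLUT3KO range. Gclc over Gclm, the subunits of 1 enzyme, was 0.734 ± 0.107 in GLUT3KO cells with acetate and 1.77 ± 0.36 without, and 0.897 ± 0.0168 in WT cells with acetate and 1.67 ± 0.63 without. In ACLYKO cells it was 0.937 ± 0.0721 with acetate and 1.09 ± 0.17 without. Gsr over Txnrd1, the reductases of the glutathione and thioredoxin systems, was 0.587 ± 0.0628 in GLUT3KO cells with acetate and 0.731 ± 0.124 without, against 0.201 ± 0.0154 in WT cells with acetate and 0.314 ± 0.0394 without. In ACLYKO cells it was 0.185 ± 0.00797 with acetate, and 0.0455, 0.261 and 0.266 in replicates 1 to 3 without.

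**Figure D4:**
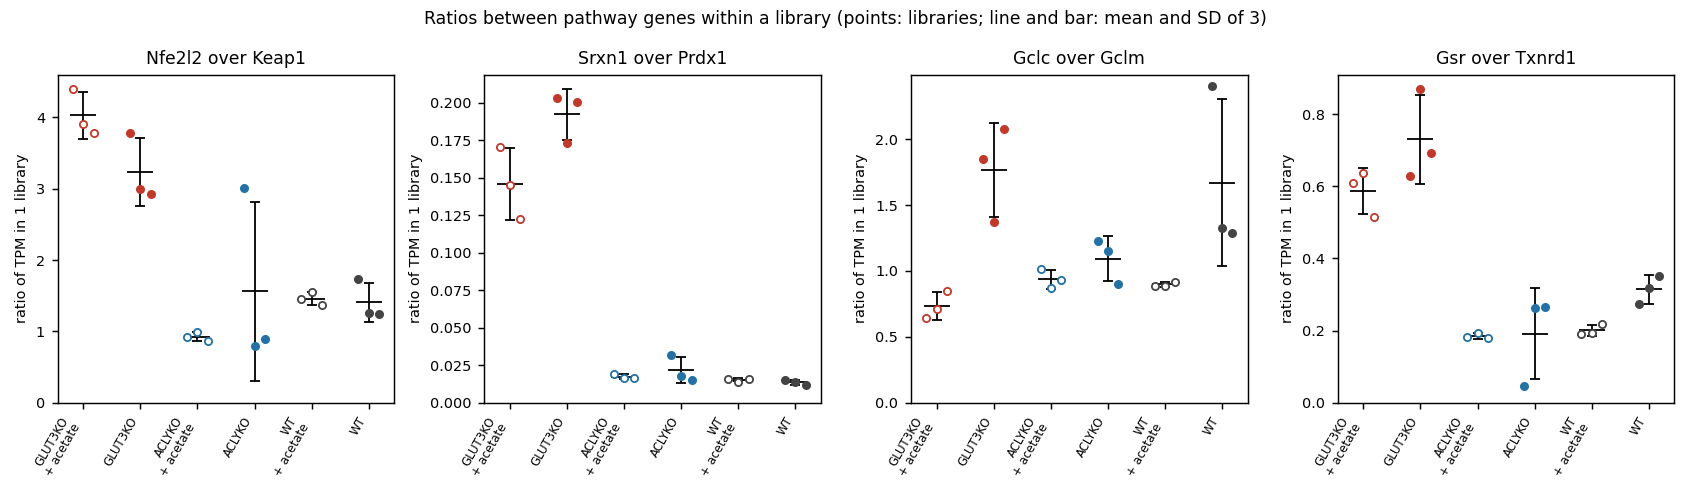
Ratios of TPM between partner genes within a library, 1 panel a ratio; points are libraries, open with acetate and filled without, and lines and bars are the mean and SD of 3. Srxn1 over Prdx1 is at least 0.12 in every GLUT3KO library and at most 0.032 elsewhere, and Nfe2l2 over Keap1 is near 3 in 1 of the ACLYKO libraries without acetate.

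Across the 18 libraries Srxn1, Gsr and Nfe2l2 went together most closely of the 10 genes, with Pearson correlations of log2(TPM + 1) of 0.912 (Srxn1 and Gsr), 0.91 (Nfe2l2 and Srxn1) and 0.909 (Nfe2l2 and Gsr). The lowest was -0.569, between Txnrd1 and Prdx1. Other genes were compared if protein-coding, past the filter and without a Gm, Rik or pseudogene name. Among these, those most like Srxn1 were Twsg1 (0.987) and Fam167a, Serinc5, Mospd2 and Jazf1 (0.985 each). Twsg1, for example, averaged 167.5 ± 26.8 TPM in GLUT3KO cells and 33.9 ± 5.50 TPM in WT cells. Those most like Nqo1 were Psmd2 (0.94), a subunit of the proteasome, Derl3 (0.931), Ube4a (0.929), Elk4 (0.92) and Cspg5 (0.917). Those most like Hmox1 were Ubox5 and Nup188 (0.898 each), BC005537 (0.89), Trim35 (0.888) and Trib3 (0.882). The points share the 3 genotypes and the axis within groups given above, so these values describe the libraries only.

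Of 80 other genes of the pathway in 6 lists, 70 were tested. In GLUT3KO against WT without acetate 24 rose and 5 fell (34.3% and 7.14% of the 70), beside the 24.9% and 8.47% of all genes given above, with a median log2 change of 0.26 against 0.17 over all genes. With median-ratio scaling 18 rose and 10 fell (25.7% and 14.3%, beside 18.7% and 15.4% of all genes), and after quantile normalization 19 rose and 10 fell (27.1% and 14.3%, beside 18.1% and 16.9%), with a list median of -0.01. After correction for GC and length 26 rose and 9 fell (37.1% and 12.9%, beside 19.5% and 17.7%), and without the set of 5 libraries 34 rose and 11 fell (48.6% and 15.7%, beside 37.4% and 15.9%). The counts of single lists that follow are read against the same 24.9% and 8.47%, and those of a refit against the shares just given for that refit. Of 13 regulators of NRF2 5 rose and 1 fell, and without the set of 5 libraries 10 rose and 1 fell. Bach1, the repressor that competes with NRF2 for AREs, had 8.88, 11.7 and 9.30 TPM in GLUT3KO libraries, against 1.51, 1.94 and 1.42 TPM in WT libraries (log2 change 2.06 ± 0.18, limma adjusted p = 7.24e-07). Nfe2l1, a relative of NRF2 that controls proteasome genes, rose by 1.06, Gsk3b, a kinase that marks NRF2 for destruction, by 1.01 and Maff, a small MAF partner, by 0.81 on the log2 scale.

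Of 18 genes of glutathione supply and use 7 rose and 1 fell in GLUT3KO cells. Gstt1, a glutathione transferase, averaged 13.8 ± 3.82 TPM in GLUT3KO cells and 0.537 ± 0.273 TPM in WT cells (log2 change 3.26, limma adjusted p = 1.8e-06). Glrx, glutaredoxin, averaged 69.3 ± 12.9 TPM in GLUT3KO cells and 21.3 ± 1.68 TPM in WT cells (1.64, 2.7e-07), and Slc7a11, the cystine importer, 10.3 ± 1.00 TPM in GLUT3KO cells and 4.31 ± 1.28 TPM in WT cells (1.11, 0.000137). Gsto1, another transferase, changed by -1.13. Among 13 thioredoxin and peroxide enzymes 1 rose and 2 fell: Txnip, the thioredoxin-binding protein that also responds to glucose, by 0.99, and Txnrd3 and Sod2, the mitochondrial superoxide dismutase, by -1.23 and -0.85 on the log2 scale. Of 8 haem and iron genes 4 rose and 0 fell (2 and 0 with median-ratio scaling), with Hmox2, the constitutive haem oxygenase, at 1.33, Ftl1 and Fth1, the light and heavy chains of ferritin, at 0.93 and 0.86, and Slc48a1, a haem transporter, at 0.72. Of 12 detoxification genes and other targets 5 rose and 0 fell, with Osgin1 at 1.71, Sesn2 at 0.95, Sesn1 at 0.92 and Nqo2 at 0.90. Of 6 genes of NADPH supply 2 rose (Idh1 by 0.70 and G6pdx by 0.41) and 1 fell (Tkt, a log2 change of -0.63). The median over these 6 was -0.42, and the balance turned to 1 higher and 2 lower with median-ratio scaling and to 0 and 2 after quantile normalization. Of the 22 genes named here for GLUT3KO against WT, 16 kept their call in each of 15 refits. The other 6 lost it in some: Ftl1 in 9, G6pdx in 8, Tkt in 5, Sesn2 in 4, Fth1 in 2 and Idh1 in 1.

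In ACLYKO against WT without acetate 10 of the 70 genes rose and 8 fell (14.3% and 11.4%), beside the 12.7% and 6.38% of all genes given above, with a median of -0.05 against 0.03 over all genes. The balance turned to 10 higher and 12 lower with median-ratio scaling (beside 11.9% and 9.87% of all genes) and to 8 and 12 after quantile normalization (beside 11.2% and 9.68%). Without the set of 5 libraries 30 rose and 13 fell, beside 35.3% and 14.4% of all genes. Txnip had 32.2, 63.4 and 52.4 TPM in ACLYKO libraries, against 174.5, 178 and 178 TPM in WT libraries, so every ACLYKO library was lower (log2 change -1.88 ± 0.20, limma adjusted p = 1.35e-05). In GLUT3KO libraries it stood at 309, 354 and 402.5 TPM, above every WT library. Txnrd3 changed by -1.23 in ACLYKO cells, the value it had in GLUT3KO cells. Cat, catalase, averaged 39.8 ± 12.2 TPM in ACLYKO cells and 19.7 ± 1.58 TPM in WT cells (0.94, limma adjusted p = 0.0046), and Fth1, ferritin heavy chain, 663 ± 222 TPM in ACLYKO cells and 348 ± 43.8 TPM in WT cells (0.89, limma adjusted p = 0.00388). The calls of Cat and Fth1 ended in the fit of these groups alone (0.131 and 0.197). Of 15 genes that the naming rule gave in this contrast, 2 kept their call in each of 15 refits, Txnip and Txnrd3.

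**Figure D5:**
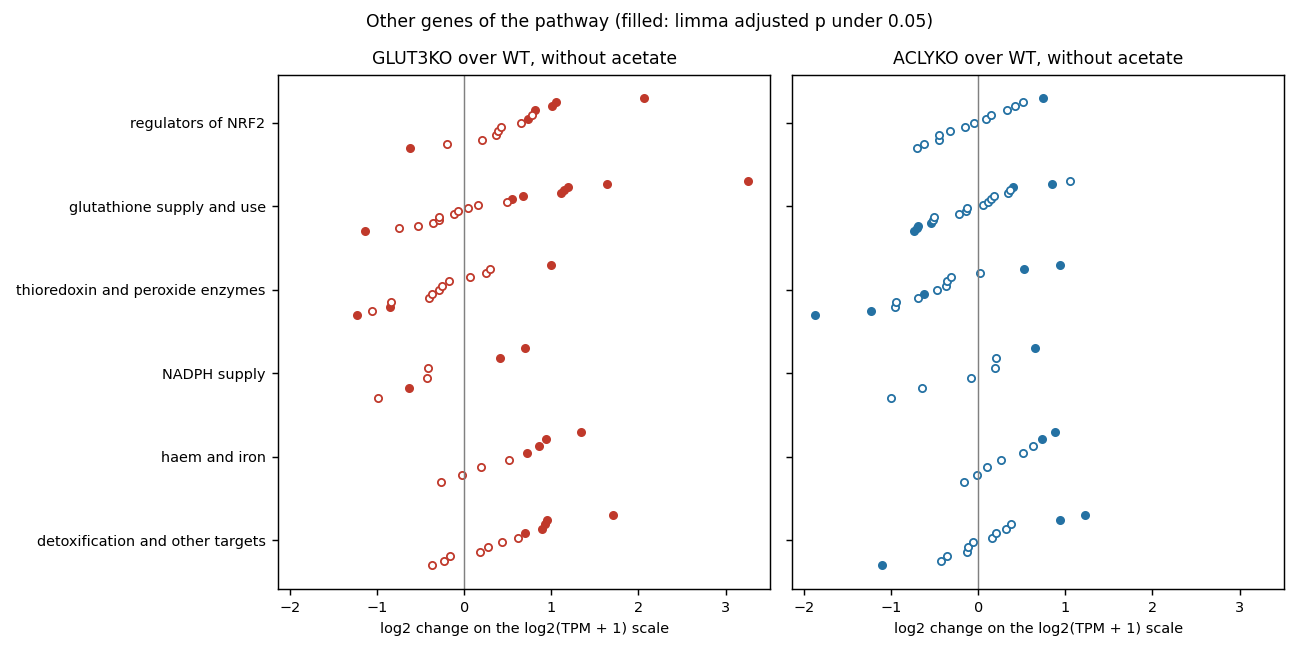
log2 change of the 70 other pathway genes tested, in 6 lists, for GLUT3KO over WT (left) and ACLYKO over WT (right) without acetate; each point is a gene, filled where the limma adjusted p is under 0.05. Gstt1 at 3.26 and Bach1 at 2.06 lie farthest to the right in GLUT3KO, and Txnip at -1.88 farthest to the left in ACLYKO.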

How the data were processed

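The 10 genes, the lists of other genes and the tests were chosen with earlier results of these data known. The authors deposited 1 table of TPM (an other unit than counts) covering 45703 genes. Its combined exon length, in bases, was likewise deposited by the authors and is an other unit. Per the submitters' processing notes the build was GRCm38.p6 and the tools were STAR 2.7.2b, featureCounts 1.6.4 of Subread, cutadapt, DESeq2 and bcl2fastq 2.20.0.422. The library kit marks strand per the labels. The sources used here do not give the strand setting of the counting, so genes that overlap another (Gclm with Gm6061 and Gm46822, Txnrd1 with Eid3 and Gm38560, Prdx1 with AV051173, Gsr with Gm24727) may share reads with it. Reads were recovered as TPM times exon length over the smallest step of a library; 100% of values under 500 reads came out whole (tolerance 0.01), and libraries held 18.7 to 30.1 M reads (median 23.3 M). Every gene ID was found in the gene table of RefSeq.

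A limma model (limma 3.58.1, R 4.3.3, trend and robust on) of the 6 group means of log2(TPM + 1) took in all 18 libraries and the 14229 genes with at least 1 TPM in at least 3 libraries. Benjamini-Hochberg adjustment ran over these genes within each of 11 comparisons. Fold changes on this scale understate those of low genes. Alternatives were a pseudocount of 0.1 TPM, no filter, median-ratio scaling, voom on the recovered reads, a fit of only the groups compared, a replicate block, leaving out a set of 5 libraries taken from earlier results of these data (with 1 GLUT3KO library left, assumed to vary like the other groups) and leaving out each library in turn. Quantile normalization and a correction for GC content and length (13484 genes) were added after seeing the data.

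Same-numbered libraries deviated together, with residual correlations above 0.1 in each pair. This held within each genotype without and with acetate (0.12 to 0.548) and between untreated ACLYKO and WT (0.285 to 0.577). These comparisons are called paired below, but the main fit did not pair them. Pairing entered only in the refit with a replicate block. The pairing comes from the replicate numbers in the labels, which do not say what a number shares. Named genes were the 10, the targeted genes, up to 4 called genes of each other list by smallest adjusted p in each loss and acetate comparison, and the 5 genes most alike in pattern to Srxn1, Nqo1 and Hmox1. Markers were fixed lists, and Trdc, Cat and Fth1 fall under those rules. B cell, CD8 T cell, neutrophil and erythroid markers summed to at most 5.61, 19.9, 3.71 and 5.70 TPM in any library.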

Additional observations from a re-analysis of the deposited data

How the results depend on the processing

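Of 27 calls of the 10 genes, refitted 405 times in all, 349 refits kept direction and threshold, 56 lost the threshold and 0 turned the direction; 15 calls kept it in every refit, among them those of Nfe2l2, Srxn1, Gsr and Nqo1 in GLUT3KO over WT. For GLUT3KO over WT 5 genes were called, and no alternative moved that count by more than 1.5 times. In the fit of only the groups compared the counts follow, each with the share of all genes called in that fit. They were 0 in ACLYKO over WT (2.4%), 7 in GLUT3KO over WT with acetate (66%) and 1 in ACLYKO over WT with acetate (24.3%). For acetate in WT the count was 0 (10.3%), for acetate in ACLYKO 0 (2.98%), and in GLUT3KO over ACLYKO 3 (17.1%). Without the set of 5 libraries, where 3.19% to 66.7% of all genes were called, against 0.773% to 40.4% with all 18, they were 8 in ACLYKO over WT, 8 in GLUT3KO over WT with acetate, 4 in ACLYKO over WT with acetate, 6, 6 and 7 for acetate in WT, GLUT3KO and ACLYKO, and 2 and 3 for the differences of the acetate change in GLUT3KO and in ACLYKO from WT. Corrected for GC and length the counts were 6 in GLUT3KO over WT with acetate (beside 36.9% of all genes) and 1 in ACLYKO over WT with acetate (14.2%). They were 2 for acetate in WT (11.3%) and 5 for acetate in GLUT3KO (17%). Acetate in WT gave 0 with no filter, median-ratio scaling, voom, quantile normalization and the replicate block, beside 3.48%, 8.58%, 8.54%, 8.5% and 5.36% of all genes. Leaving out 1 library in turn gave 1 to 5 in ACLYKO over WT (beside 12.5% to 25.3% of all genes) and 4 to 5 in GLUT3KO over WT (24.3% to 36.6%). It gave 1 to 7 for acetate in ACLYKO (11.8% to 20.7%). In every such refit it gave 0 for acetate in WT (3.17% to 4.5%) and 2 for acetate in GLUT3KO (6.75% to 16.5%). The cause was not tested. With the replicate block the pairing changed the calls of Gclc for acetate in WT (limma adjusted p = 0.0512) and of Gsr for acetate in GLUT3KO (0.103). No other call of the paired comparisons changed. The comparisons of GLUT3KO with WT and with ACLYKO share only a number (residual correlations of untreated GLUT3KO and WT 0.721, 0.622 and -0.354). There the block gave 5 calls without and 4 with acetate against WT, beside 39.4% and 34.7% of all genes. At this depth 1 read of a gene of 2000 bases is worth 0.0342 to 0.0719 TPM, so the low levels of Nqo1 rest on as few as 19 reads in a library.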

Other observations

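Several other genes of the pathway moved with acetate. Blvrb, biliverdin reductase B, rose in all 3 genotypes: it averaged 9.36 ± 0.34 TPM in GLUT3KO cells with acetate and 4.44 ± 1.43 TPM without, 12.5 ± 3.26 TPM in ACLYKO cells with acetate and 5.70 ± 0.84 TPM without, and 15.2 ± 1.74 TPM in WT cells with acetate and 3.69 ± 0.71 TPM without (SD, n = 3 each; limma adjusted p 0.00574, 0.00268 and 9.12e-05). The GLUT3KO call of Blvrb ended without the set of 5 libraries (0.0744), and the ACLYKO call in the fit of these groups alone (0.0988). Gstt1, a glutathione transferase, had 109, 115 and 112 TPM in GLUT3KO libraries with acetate, against 11.1, 18.2 and 12.3 TPM without (log2 change 2.95, limma adjusted p = 3.51e-05), while WT libraries had at most 1.82 TPM with acetate and 0.849 TPM without.

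In GLUT3KO cells with acetate Abcb6, a porphyrin transporter, averaged 0.971 ± 0.313 TPM, against 4.52 ± 1.68 TPM without (log2 change -1.46, limma adjusted p = 0.00116), and Glrx 28.4 ± 1.05 TPM, against 69.3 ± 12.9 TPM without (-1.24, 3.19e-05). Fech, which inserts iron into a porphyrin to make haem, changed by -1.11, and Ggct, of glutathione breakdown, by -1.45. Ephx1, an epoxide hydrolase, changed by -1.18 in GLUT3KO cells and by 1.08 in WT cells (limma adjusted p 0.00681 and 0.018). The WT call of Ephx1 ended with the replicate block (0.0556), without WT replicate 1 or 2 (0.0688 and 0.073) and without WT with acetate replicate 2 or 3 (0.0746 and 0.0673). Of the 70 genes tested 6 rose and 8 fell with acetate in GLUT3KO cells (8.57% and 11.4%, beside 4.86% and 7.89% of all genes). In ACLYKO cells 11 rose and 7 fell (15.7% and 10%, beside 11.7% and 5.6%), and in WT cells 5 rose and 2 fell (7.14% and 2.86%, beside 4.22% and 2.28%). Without the set of 5 libraries these counts were 11 and 17 in GLUT3KO (beside 8.75% and 15.8% of all genes), 17 and 18 in ACLYKO (18.1% and 22.5%) and 16 and 11 in WT cells (14.2% and 13.1%). After correction for GC and length they were 8 and 14 in GLUT3KO (beside 9.83% and 7.22% of all genes), 15 and 12 in ACLYKO (12.3% and 10.1%) and 6 and 5 in WT cells (6.74% and 4.58%).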
